A study of Mus musculus with 8 samples.

Results

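The genes described here encode ion channels of the skeletal muscle fibre membrane and the proteins that couple one of them to calcium release: Cacna1s, Cacnb1, Cacng1, Cacna2d1 and Stac3 of the dihydropyridine receptor, the sodium channel Scn4a, and the potassium channels Kcnn3, Kcnj2 and Kcnj11. Their probe sets were taken by name, as those whose symbol field lists one of these genes. The genes themselves were chosen with earlier results of these data known. All 9 genes had a probe set, and 10 of the 22206 probe sets of the array named a member. For Scn4a, which had a pair of them, the one with the higher mean level was used. Voltage gating holds only for some of the proteins. Kcnn3 is opened by calcium, Kcnj2 and Kcnj11 are inward rectifiers without a voltage sensor, and Stac3 is an adaptor, not a channel.

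An action potential of a muscle fibre is carried by the sodium channel Nav1.4 and spreads into the transverse tubules, where the dihydropyridine receptor senses the voltage and opens the ryanodine receptor of the sarcoplasmic reticulum. Potassium and chloride channels set the resting potential and bring the membrane back to it. The ATP-sensitive potassium channel is built from the pore Kcnj11 and a sulfonylurea receptor, and it opens when the energy state of the fibre falls.

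RNA of the gastrocnemius muscle (GAS) of male C57/Bl6j mice aged 22 weeks was measured on Clariom S Mouse microarrays. Both groups of 4 arrays had received an adeno-associated virus of serotype 1, injected into the muscle at an age of about 10 weeks, 12 weeks before sampling. In the AAV sh-RNA MYTHO group (MYTHO-KD) the virus carried an sh-RNA against D230025D16Rik, the gene named Mytho, and in the AAV sh-RNA scrmb group (scramble) a scrambled sh-RNA. The sh-RNA was driven by a U6 promoter, which is not restricted to muscle fibres, and per the study's methods the control muscle was that of the contralateral leg. The labels do not say which arrays came from the same animal.

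The values used here were the authors' average and SD of each group on a log2 scale. Single arrays were not analysed here, so whether single arrays of the groups overlapped cannot be said, and p-values measure only the spread that these SDs hold. The sh-RNA target was at 7.71 ± 0.66 in MYTHO-KD and 10.02 ± 0.37 in scramble (authors' average ± SD), 20.2% of the scramble level, with an adjusted p of 0.0138 (Benjamini-Hochberg over all probe sets, limma). The labelled tissue held its defining markers: 3 of 8 fibre markers (Acta1, Myh4 and Atp2a1) lay at the top of the scale, 19.93, with an SD of 0 in both groups, where no difference could be read. The muscle is a tissue of several cell types, and in such bulk RNA fewer cells of a type and less RNA per cell cannot be told apart.

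Kcnj11 was the 1 member that passed the unadjusted test, and it did not pass after adjustment. It was 1.84-fold higher in MYTHO-KD (95% interval 1.29 to 2.63), while the other 8 members differed by less than 0.35 on the log2 scale in either direction. By the rule of the study's methods, a 2-fold change with an unadjusted p under 0.05, 0 of 9 members were higher and 0 were lower, against 0.860% of all probe sets higher and 0.257% lower. At an unadjusted p under 0.05 with any fold, 1 member was higher and 0 were lower, against 6.48% and 5.52% of all probe sets. A 1.5-fold change with the same p was met by 1 member, Kcnj11, against 3.54% of all probe sets for higher values. After adjustment over all probe sets 0 of 9 members passed 0.05 in limma, against 0.275% of all. Read against these shares, 1 of 9 is no result about the members as a group, and what follows gives each gene on its own. There, "rose", "fell" and "passed" stand for an unadjusted p under 0.05 in the same fit, and the adjusted p-values printed are those of limma over all probe sets.

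**Figure D1:**
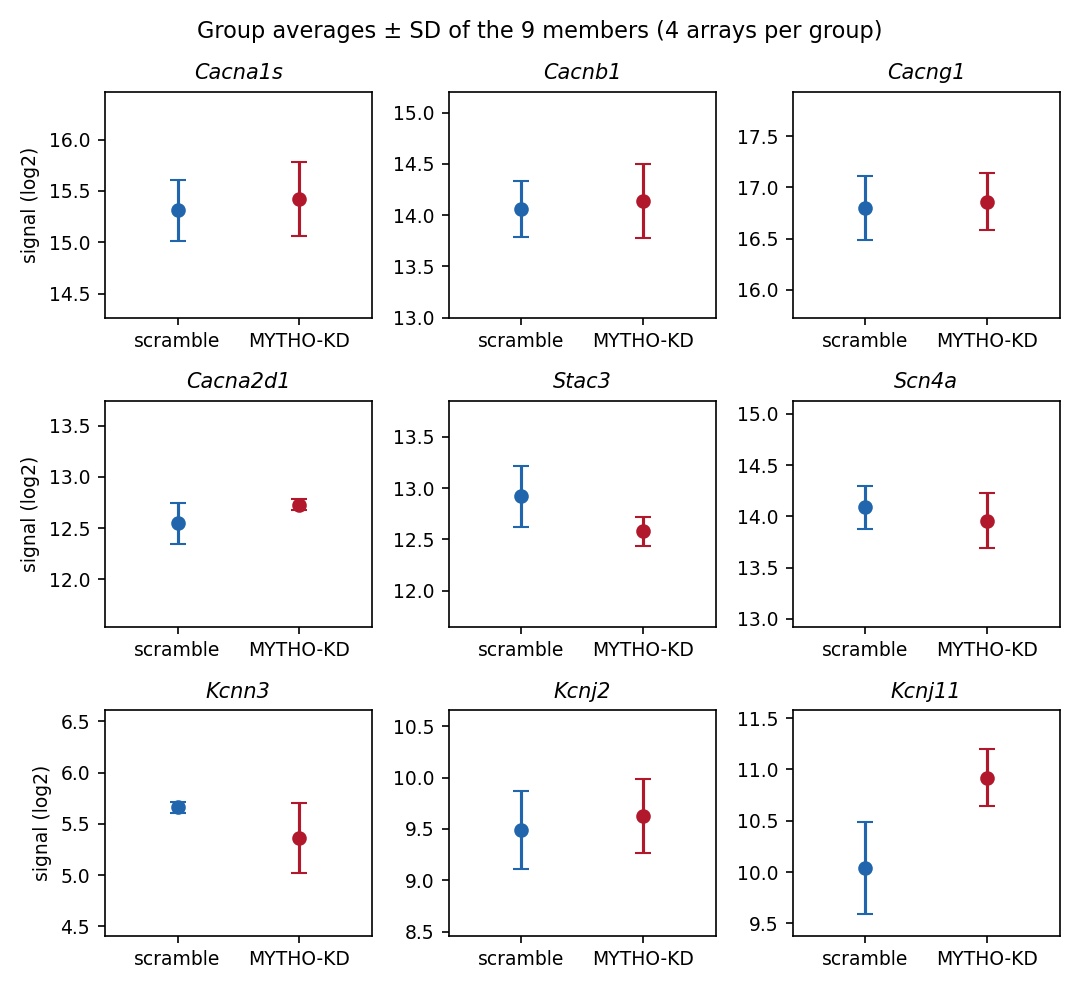
Log2 signal of the 9 members in scramble (blue) and MYTHO-KD (red); points are the authors' group averages and bars their SDs, 4 arrays per group, and every panel spans the same 2.2 log2 units. The bars of Kcnj11 (10.92 ± 0.28 against 10.04 ± 0.45) are the ones that do not overlap, and the 5 genes of the dihydropyridine receptor complex keep overlapping bars.

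The dihydropyridine receptor is the voltage sensor of excitation-contraction coupling. Its 5 genes differed by -0.34 to 0.18 on the log2 scale, with a median of 0.08, and none passed an unadjusted p of 0.05. Cacna1s, the pore and voltage sensor (mm10 chr1:136052750-136119822, plus strand), averaged 15.42 (SD 0.36) in MYTHO-KD against 15.31 (SD 0.30) in scramble. The difference of 0.11 had a standard error of 0.218 and a 95% interval of -0.37 to 0.59 (adjusted p = 0.901). A loss of the voltage sensor's mRNA by more than 0.37 on the log2 scale therefore lay outside the interval.

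Cacnb1, the intracellular beta subunit that brings the pore to the triad, lies on the minus strand of chromosome 11 and has 2 RefSeq start sites, both inside the range of its probe set (mm10 chr11:98001508-98023034). The array gives a single value for the gene, so it does not report the upstream and the downstream start apart. The positions of the probes within the range were not examined, so which transcripts the value covers is not known. The windows below, from RefSeq on GRCm38.p6, are shown because they mark the 2 starts that the range of the Cacnb1 probe set spans. Capitals mark the 50 bases from the start site on. The GC content is 73.7% in the upstream and 59.3% in the downstream window, against a median of 52.7% over all 32851 windows.
Cacnb1 upstream start, chr11:98022578-98022877, minus strand: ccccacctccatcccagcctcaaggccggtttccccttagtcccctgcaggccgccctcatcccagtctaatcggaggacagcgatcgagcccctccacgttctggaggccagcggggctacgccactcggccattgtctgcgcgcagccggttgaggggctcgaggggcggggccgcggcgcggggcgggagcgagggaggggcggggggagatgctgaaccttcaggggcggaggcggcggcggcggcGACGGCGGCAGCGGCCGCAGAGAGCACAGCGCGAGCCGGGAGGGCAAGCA
Cacnb1 downstream start, chr11:98018323-98018622, minus strand: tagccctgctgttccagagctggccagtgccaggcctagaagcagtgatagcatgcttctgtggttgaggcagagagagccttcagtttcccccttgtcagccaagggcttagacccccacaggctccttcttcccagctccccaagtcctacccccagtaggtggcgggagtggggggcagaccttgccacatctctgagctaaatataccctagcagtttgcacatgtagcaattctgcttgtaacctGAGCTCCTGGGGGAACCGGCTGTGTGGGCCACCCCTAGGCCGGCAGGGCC

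On its single probe set Cacnb1 averaged 14.14 (SD 0.36) in MYTHO-KD and 14.06 (SD 0.27) in scramble. The difference of 0.08 had an interval of -0.39 to 0.55 (adjusted p = 0.934). Cacng1, the transmembrane gamma subunit of skeletal muscle (chr11:107703218-107716522), averaged 16.86 and 16.80, with SDs of 0.28 and 0.31. Its difference of 0.06 was the smallest of the members (interval -0.39 to 0.51, adjusted p = 0.952). For these subunits, as for the pore, the difference was smaller than the SD of either group.

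Cacna2d1, the extracellular alpha2-delta subunit that helps the channel reach the surface (chr5:15934691-16374511), averaged 12.73 in MYTHO-KD and 12.55 in scramble. The MYTHO-KD arrays lay close together, with an SD of 0.05 against 0.20 in scramble. The difference of 0.18 (interval -0.17 to 0.53) did not pass the test (adjusted p = 0.725). Stac3, the adaptor that is needed for the voltage sensor to act on the ryanodine receptor (chr10:127501686-127508823), averaged 12.58 (SD 0.14) and 12.92 (SD 0.30). It had the lowest difference of the 9 genes, -0.34, or 0.79-fold, with an interval of -0.74 to 0.06 (adjusted p = 0.497). Stac3 thus did not pass the test, and a decrease of up to 0.74 on the log2 scale stayed within its interval.

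**Figure D2:**
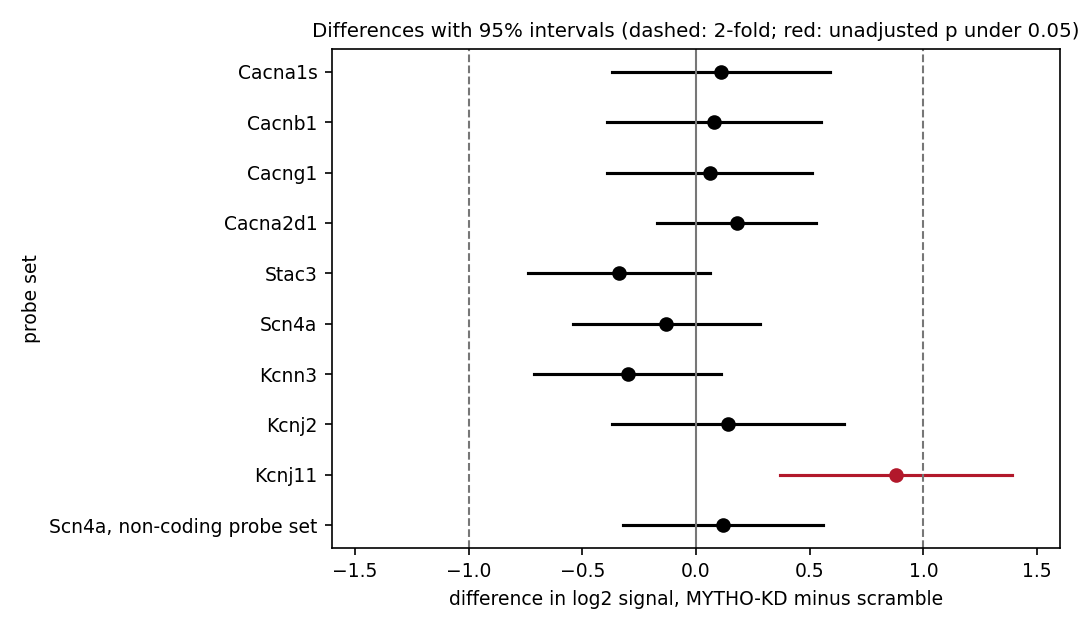
Difference in log2 signal (MYTHO-KD minus scramble) of each member and of the non-coding Scn4a probe set, as a point with its 95% interval; dashed lines mark a 2-fold change. The interval of Kcnj11 (0.37 to 1.39) leaves 0 out, and those of the other 8 members include 0 and end before 2-fold in both directions.

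The partners of the receptor at the triad, the junction of transverse tubule and sarcoplasmic reticulum, were read from a list of 29 genes. Of these 0 rose and 4 fell at an unadjusted p under 0.05, and the median difference was -0.14, against -0.01 over all probe sets. Calm3, which encodes calmodulin, fell most, from 15.80 to 14.42 (difference -1.38, adjusted p = 0.0392), and was the single gene of the list to pass after adjustment. Ryr1, the calcium release channel that the dihydropyridine receptor opens, was at 16.34 against 16.73 (difference -0.39, adjusted p = 0.408). With all differences centred on their median its p was 0.0511, so this call rests on the setting.

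Trdn, which encodes triadin and ties the ryanodine receptor to calsequestrin, fell by 0.37 on the log2 scale (18.17 against 18.54, adjusted p = 0.364). Jph3, a junctophilin known from brain, fell from 5.26 to 4.45 (adjusted p = 0.133), both below the 30th percentile of the array, 5.71. The junctophilins of muscle, chosen after their values were seen, did not pass: Jph1 was at 14.95 against 15.05 and Jph2 at 11.95 against 12.11. Among the other voltage-gated calcium channel genes 1 of 22 rose and 2 fell. Cacna1a, the pore of the P/Q-type channel of nerve terminals, rose from 5.95 to 7.21 (adjusted p = 0.111), and Cacnb2 and Cacng4, subunits of other calcium and receptor complexes, fell by 0.44 and by 0.54. The RGK GTPases, small G proteins that bind beta subunits and restrain the channel, did not pass in any of 4 cases (differences -0.20 to 0.70).

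Scn4a encodes Nav1.4, the sodium channel of the muscle action potential. It averaged 13.96 (SD 0.27) in MYTHO-KD and 14.09 (SD 0.21) in scramble, and the difference of -0.13 had an interval of -0.54 to 0.28 (adjusted p = 0.849). A second probe set, annotated as non-coding and with its range (mm10 chr11:106349455-106353288, minus strand) upstream of the coding one (chr11:106318592-106349390), averaged 10.23 (SD 0.13) and 10.11 (SD 0.38), a difference of 0.12 (adjusted p = 0.877). The probe sets on either side of the RefSeq start site thus differed in sign, and neither passed. The RefSeq window over that site is shown because it joins them. The 64 bases in capitals lie between the ranges, just upstream of the annotated start at position 106349390. An ATG follows directly after that position. Whether Scn4a transcripts begin farther upstream, within the range of the non-coding probe set, was not examined.
Scn4a start, GRCm38.p6 chr11:106349341-106349640, minus strand: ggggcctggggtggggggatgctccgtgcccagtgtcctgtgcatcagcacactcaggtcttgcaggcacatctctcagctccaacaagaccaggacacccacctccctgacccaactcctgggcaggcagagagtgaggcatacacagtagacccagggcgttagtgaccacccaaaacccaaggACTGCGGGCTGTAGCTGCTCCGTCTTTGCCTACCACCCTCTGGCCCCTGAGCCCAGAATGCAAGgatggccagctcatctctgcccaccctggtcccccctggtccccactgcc

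Across the 12 other sodium channel genes of the array the median difference was -0.01. Scn4b, a beta subunit of sodium channels that was named after its values were seen, was at 13.23 against 13.30 and did not pass.

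Of a list of 14 denervation and extrajunctional genes 3 rose, each by over 2-fold, and 1 fell, with a median of -0.02. Chrna1, the alpha subunit of the acetylcholine receptor, rose from 6.73 to 7.80 (adjusted p = 0.141), Runx1, a transcription factor induced by denervation, from 6.74 to 7.96 (adjusted p = 0.146), and Myh3, the embryonic myosin heavy chain, from 6.46 to 7.73 (adjusted p = 0.366). Musk, the receptor kinase of the neuromuscular junction, fell from 13.52 to 12.81 (adjusted p = 0.199). Myh3 had an SD of 1.28 in MYTHO-KD and did not pass without moderation, with trend and robust fitting, or with unequal variances. Myh8 of the same list lay at the top of the scale, 19.93, with an SD of 0 in both groups, where no difference could be read.

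The potassium channel members ranged from -0.30 for Kcnn3 to 0.88 for Kcnj11. Among them only Kcnj11 passed, and differences between these genes were not tested. Kcnn3 encodes SK3, the small-conductance calcium-activated channel that is high in denervated and in myotonic muscle (mm10 chr3:89520164-89675132). It averaged 5.36 (SD 0.34) in MYTHO-KD and 5.66 (SD 0.05) in scramble, both below the 30th percentile of the array. The difference of -0.30 had an interval of -0.71 to 0.11 (adjusted p = 0.574). No increase above 0.11 was inside that interval, on values at which the array gives little signal.

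Kcnj2 encodes Kir2.1, an inward rectifier that holds the resting potential of the fibre (chr11:111066164-111076825). It averaged 9.63 (SD 0.36) and 9.49 (SD 0.38), and the difference of 0.14 had an interval of -0.37 to 0.65 (adjusted p = 0.877). The related Kcnj12, which encodes Kir2.2 and was named after its values were seen, was at 11.41 (SD 0.22) against 10.80 (SD 0.38). It was 1.53-fold higher (adjusted p = 0.27), the single gene to pass in a list of 7 sulfonylurea receptors and inward rectifiers, of which 0 fell and whose median was -0.14.

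Kcnj11 encodes Kir6.2, the pore of the ATP-sensitive potassium channel (mm10 chr7:46097123-46100764, minus strand). It averaged 10.92 (SD 0.28) in MYTHO-KD against 10.04 (SD 0.45) in scramble, so that the averages lay farther apart than the sum of the SDs. The difference of 0.88 had a standard error of 0.236 and an interval of 0.37 to 1.39. Its unadjusted p ranked 411 among 22206 probe sets, which gave an adjusted p of 0.154. Over the 7 settings tried the p ran from 0.00161 to 0.0209 and the adjusted p from 0.0961 to 0.483, so Kcnj11 was past the unadjusted threshold in all 7 and past the adjusted one in none.

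The partners of Kcnj11 did not pass the test. Abcc8, which encodes the sulfonylurea receptor SUR1 and whose range on chromosome 7 begins 3758 bases beyond that of Kcnj11, was at 6.34 (SD 0.40) in MYTHO-KD and 6.35 (SD 0.32) in scramble (adjusted p = 0.99). Abcc9, which encodes SUR2, the receptor of most muscle channels, was at 14.15 against 14.30, a difference of -0.15 with an interval of -0.49 to 0.19 (adjusted p = 0.774). Kcnj8, the pore Kir6.1 of vascular channels, was at 8.97 against 9.11 (adjusted p = 0.865). These 3 genes were chosen for their role with values known, and the difference between Kcnj11 and each of them was not tested.

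**Figure D3:**
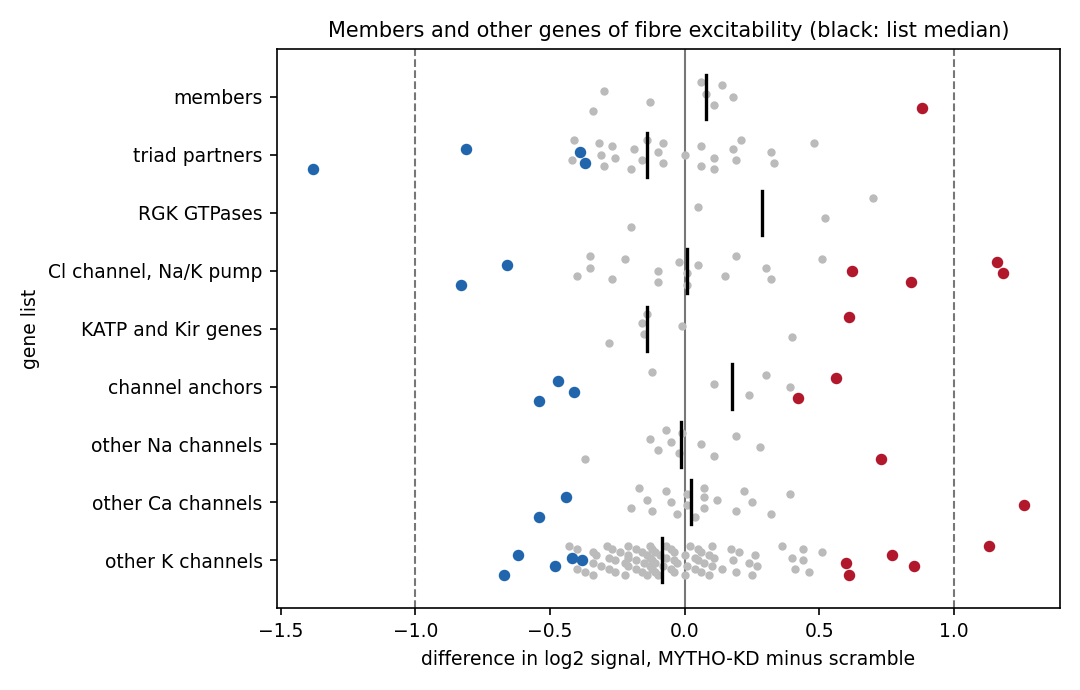
Difference in log2 signal (MYTHO-KD minus scramble) of every gene in the member group and in 8 lists of related genes; red and blue points passed an unadjusted p of 0.05 as higher or lower, grey points did not, black lines are list medians and dashed lines 2-fold. Kcnj11 at 0.88 stands apart from the other members, and 4 of the 8 lists hold genes that passed in both directions.

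Across the 92 other potassium channel genes, which include Kcnj12 and Kcnj8, 5 rose and 5 fell, with a median of -0.08. Kcnc1, which encodes the delayed rectifier Kv3.1, rose from 11.33 to 12.18 (adjusted p = 0.194). Kcne1l, a regulatory subunit, and Kcnip3, a calcium-binding channel partner, rose by 1.13 and 0.77 from low levels (adjusted p = 0.322 and 0.28). Kcna7, a voltage-gated channel of skeletal muscle named after its values were seen, was at 11.05 against 10.45. The 5 that fell were Kcng4 (difference -0.67), Kcna2 (-0.62), Kcnip1 (-0.48), Kcnq1 (-0.42) and Kcna10 (-0.38), all with averages under 7. The p of Kcna10 was 0.0679 with trend and robust fitting and 0.0513 once differences were centred, so its call rests on the setting. No adjusted p of the 92 passed 0.05 in limma.

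The chloride channel and the sodium-potassium pump complete the set that restores the membrane. Of 22 listed genes 4 rose and 2 fell. Clcn1, the chloride channel ClC-1 that carries most of the resting conductance of muscle, was named after its values were seen and fell by 0.66 on the log2 scale, from 14.74 ± 0.26 to 14.08 ± 0.56 (authors' average ± SD), with an adjusted p of 0.341. Without moderation its p was 0.0764 and with unequal variances 0.0955. Among pump subunits, Atp1b3 fell from 11.14 to 10.31 (adjusted p = 0.179). Fxyd5, a pump regulator known from epithelia, rose from 9.73 to 10.91 (adjusted p = 0.0469), Atp1b4 from 6.83 to 7.99 (adjusted p = 0.262) and Fxyd6 from 11.01 to 11.85 (adjusted p = 0.337).

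The scaffold genes that hold channels in the membrane split as well, with 2 of 10 higher and 3 lower and a median of 0.17. Sntb2, which encodes beta2-syntrophin of the dystrophin complex, was at 6.87 against 6.45 (adjusted p = 0.373). Ank3, the ankyrin that clusters sodium channels, was at 10.93 against 11.40 (adjusted p = 0.411), Ank1, whose small muscle form anchors the sarcoplasmic reticulum, at 15.24 against 15.65 (adjusted p = 0.37), and Fgf13, a sodium channel modulator, at 7.87 against 8.41 (adjusted p = 0.323). The p of Ank3 was 0.0517 once differences were centred.

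Markers of other cell types moved between the groups. All 8 macrophage markers were higher in MYTHO-KD, 5 of them past an unadjusted p of 0.05 (Cd68 2.53 and Lyz2 1.94 on the log2 scale), and their summed linear signal went from 1960 to 4760, a ratio of 2.43. All 6 fibroblast markers were higher, 2 of them past the test (Lum 1.49, Col3a1 1.43), with summed signals of 102000 and 128000. All 6 endothelial markers were higher, 2 of them past the test (Kdr 0.75, Eng 0.64), with sums of 15100 and 21400. Of 6 smooth muscle and pericyte markers and 6 Schwann cell markers 0 passed, with medians of 0.12 and -0.06. Of 6 markers of regenerating fibres and satellite cells 2 rose, Mymk (listed under its older symbol Tmem8c) from 5.90 to 7.67 (adjusted p = 0.0749) and Myh3. Another of the 6, Myh8, lay at the top of the scale, 19.93, with an SD of 0 in both groups, where no difference could be read. The lowest average of any probe set on the array was 3.18, so a value above 0 does not show that a marker was present. S100b (4.36 in MYTHO-KD, 4.31 in scramble) and Pax7 (4.97 and 4.79) lay below the 30th percentile of the array, 5.71. The part of any of these cells in the differences of Kcnj11, Clcn1, Fxyd5 or Cacna1a was not tested.

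Markers of slow fibres also varied within the groups. The 6 slow fibre markers had SDs of 1.39 to 3.67 in MYTHO-KD and 0.70 to 1.43 in scramble, and 0 of them passed the test (median difference -0.49). The members had SDs of 0.05 to 0.45. Of the 8 fibre markers, Myh1, the myosin of fast IIx fibres, passed, at 18.17 against 17.58 (adjusted p = 0.23). The part of fibre type in the members' values was not tested, since their values on single arrays were not analysed here.

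**Figure D4:**
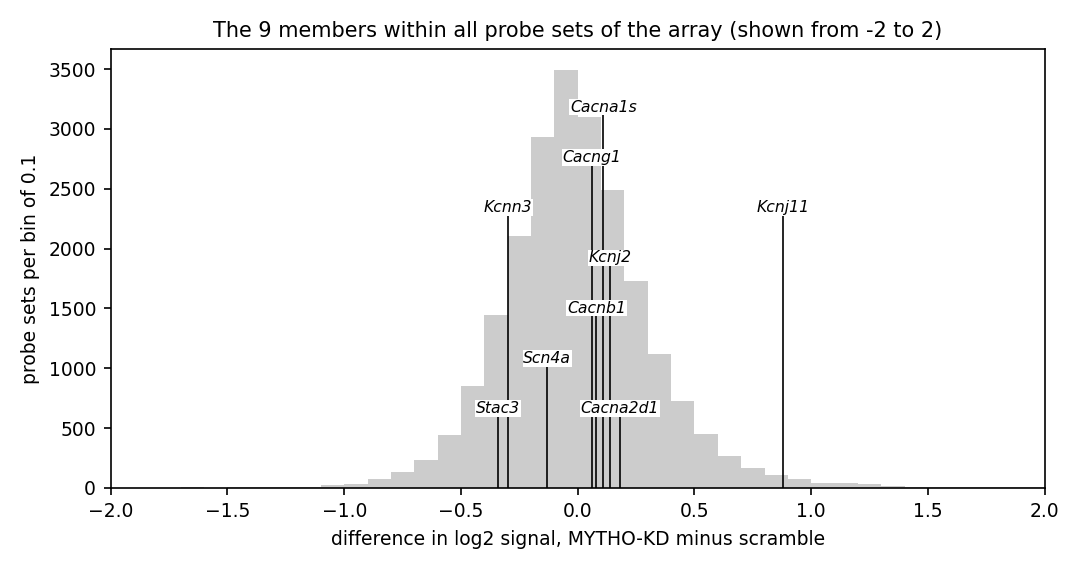
Histogram of the difference in log2 signal (MYTHO-KD minus scramble) over all probe sets of the array in bins of 0.1, shown from -2 to 2, with the 9 members as vertical lines whose heights only separate the names. The median of all probe sets is -0.01 and that of the members 0.08, and Kcnj11 lies in the right tail.

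Over the 9 members, the median difference was 0.08 against -0.01 for all probe sets, 6 were higher and 3 lower where 46.9% of all probe sets were higher, and their median absolute difference was 0.14 against 0.18. The half-width of the 95% intervals ran from 0.35 to 0.51 on the log2 scale. That is the precision of an unpaired fit of 4 arrays per group. It treated the groups as independent, although per the study's methods the control was the contralateral leg. For 8 of 9 members the interval ended before a 2-fold change in either direction. Changes smaller than these half-widths could not pass in this unpaired fit, and a p that missed the threshold does not show that a gene was unchanged.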

How the data were processed

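Total RNA of 8 GAS samples was hybridised to Clariom S Mouse arrays, 1 sample per array. Per the study's methods, the authors summarised probes with SST-RMA in Transcriptome Analysis Console and compared groups by ANOVA with empirical Bayes, calling a 2-fold change with p under 0.05. The processing notes of the submitters name Affymetrix Expression Console, RMA and the mm10 build. The deposited table gives, for each of 22206 probe sets, the average and SD of each group as log2 values; whether the average is a plain mean is not stated, and were it a robust mean the p-values would be somewhat too low. RMA compresses small differences and the scale tops out at 19.93 (38 probe sets above 19). Another 3 columns hold the authors' fold change, p-value and FDR and were not used.

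From the deposited log2 averages and SDs, moderated tests were built in R 4.3.3 from limma 3.58.1: the variances of both groups were averaged (6 residual degrees of freedom) and shrunk with squeezeVar to a prior SD of 0.284 with 5.85 degrees of freedom, and two-sided p-values were adjusted by Benjamini-Hochberg over all probe sets. The script was tested on simulated data. With several probe sets per gene, the one with the highest mean of both averages was used. All 9 members and the sh-RNA target were named, and from each list up to 4 genes with the largest differences among those with p under 0.05 where at least 2 passed. Any other gene was picked with its values in view, as stated beside it or for its known role. The members and lists were chosen with earlier results of these data known. Sequences come from RefSeq (6 of 9 members had a window, from 250 bases before to 50 after a start). Kcnj11, Stac3 and Cacng1 had none. Some genes of the lists are counted in them but are not reported here by name.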

Additional observations from a re-analysis of the deposited data

How the results depend on the processing

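No paired analysis was possible because the table analysed holds group averages and SDs, not single arrays; leaving out each array in turn was not run for the same reason. No member changed its direction or its side of an unadjusted p of 0.05 under no moderation, trend and robust fitting, unequal variances, centring on the median, 1 probe set per symbol, or without dim probe sets (below the 30th percentile, which removed Kcnn3). The mean of both Scn4a probe sets was -0.005. With a 1.5-fold threshold 1 member was called as higher in place of 0, and the probe sets called were 787 higher and 500 lower, against 191 and 57 at 2-fold; with 2-fold and an adjusted p they were 38 and 19. At an adjusted p under 0.05 at any fold, 40 probe sets were higher and 21 lower, against 0 and 2 without moderation, 115 and 74 with trend and robust fitting, and 0 and 2 with unequal variances; the cause was not tested. The sh-RNA target had an unadjusted p of 1.01e-06 to 0.00209 and an adjusted p of 0.0025 to 0.363 over the settings. Of the other genes named as passing, Atp1b4, Fxyd6, Clcn1, Ank3, Myh3, Cacng4, Kcne1l, Kcnip1, Kcnip3 and Eng lost the unadjusted call without moderation and with unequal variances. Myh3 and Kcna10 lost it with trend and robust fitting, and Ryr1, Ank3 and Kcna10 with centring. Arrays have no read depth; the number of arrays limits the precision.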
